A study of Danio rerio with 4 samples.

Results

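Desmosomes are spot-like junctions that tie the keratin filaments of one cell to those of its neighbour, and they give an epidermis its resistance to pulling. Desmosomal cadherins (desmocollins and desmogleins) bridge the gap between the cells, the armadillo proteins plakoglobin and the plakophilins bind their tails, and desmoplakin, a plakin, anchors the plaque to keratin. The 10 genes described here are 6 plakophilin genes, 2 desmoplakin copies and 2 desmosomal cadherin genes, out of 31901 genes counted. They were taken by their Ensembl IDs, as *pkp1a* (ENSDARG00000090598), *pkp1b* (ENSDARG00000052705), *pkp2* (ENSDARG00000023026), *pkp3a* (ENSDARG00000051861), *pkp3b* (ENSDARG00000079438), *pkp4* (ENSDARG00000045331), the desmoplakin copies ENSDARG00000022309 and ENSDARG00000076673, *dsc2l* (ENSDARG00000039677) and *dsg2.1* (ENSDARG00000076945). The gene-name table calls *pkp1b*, *pkp3b* and *pkp4* by the human symbols PKP1, PKP3 and PKP4, and gives both desmoplakin copies the symbol DSP, so those copies are named by ID. All 10 were expressed highly enough to be tested.

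RNA was sequenced from the growing tip of the caudal fin of adult zebrafish, *Danio rerio*, at 96 hours post amputation. One group was heterozygous for *longfin*, a dominant allele that gives overgrown fins, and the other was homozygous wildtype and consisted of their clutchmates. Fish of both groups carried the sp7:eGFP transgene, in which the osteoblast gene *sp7* drives green fluorescent protein, and only GFP-negative tissue beyond the labelled cells was collected. Each library pooled the tips of 4 fins, with 2 libraries per genotype and 19428186 to 23157979 reads in genes per library. The labels do not say whether pools of the same genotype differ in clutch or day, so errors and tests measure only the spread between these libraries.

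The family was chosen by the genotype comparison of these same libraries, in which *pkp3a* had stood out as lower in longfin tips, and its members by their names. The values of these 10 genes in that comparison are therefore given as a description, without p-values, and nothing is read from how many of them passed a threshold. Levels are in CPM, the count relative to library size, with libraries scaled by TMM, and fold changes are log2 ratios, longfin heterozygous to wildtype, from edgeR's quasi-likelihood fit to all genes. No gene lengths were used, so a CPM may be compared between libraries but not between genes. Each library is bulk tissue, so fewer cells of a type and less RNA per cell cannot be told apart.

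In wildtype tips these genes together took 0.447 and 0.444% of all gene reads, and in longfin heterozygous tips 0.272 and 0.288%. Of the 10 genes, 9 had a fold change below 0, and in the same 9 the CPM values of both longfin libraries lay below those of both wildtype libraries. Among all 18366 genes tested, 50.3% had a fold change below 0 and 19.8% had both longfin libraries below both wildtype libraries. The median log2 fold change of the 10 was -0.61, against -0.001 over all genes tested. An adjusted p under 0.05 was reached as lower by 3 of the 10, *pkp2*, *pkp3a* and *dsg2.1*, against 0.294% of all genes as lower, and as higher by 0, against 0.109%. DESeq2 called 6 as lower, against 1.16% of all genes, and limma voom 2, against 0.245%. At an unadjusted p under 0.05, edgeR had 7 lower and 0 higher, against 5.82 and 3.65% of all genes. Without either longfin library, edgeR called 0 of the 10, and it then called as lower 0.0159% of all genes without longfin heterozygous replicate 1 and 0.0052% without replicate 2. In fits with 1 library left out, the lone library of a genotype was assumed to vary as the other genotype's pair did. The calls numbered 2 without wildtype replicate 1, against 0.209% of all genes, and 4 without wildtype replicate 2, against 0.735%.

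**Figure D1:**
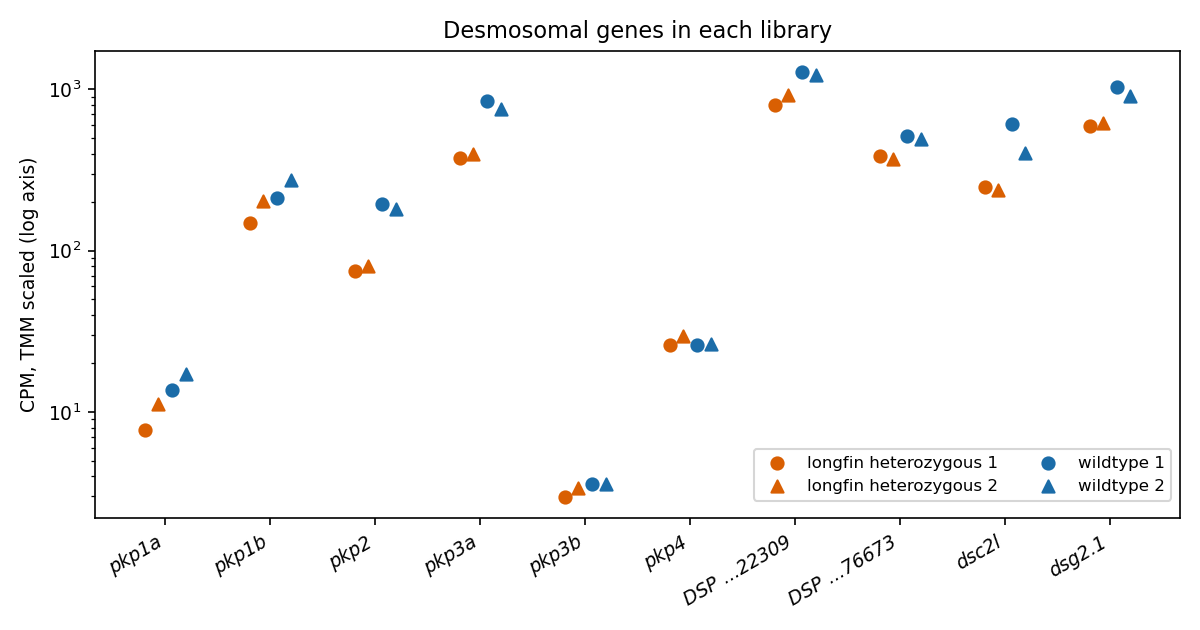
TMM-scaled CPM (log axis) of each desmosomal gene in the 4 libraries, with longfin heterozygous in orange, wildtype in blue, circles for replicate 1 and triangles for replicate 2. Both orange points lie below both blue points for 9 genes, and for *pkp4* the genotypes overlap; heights are not scaled by gene length.

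The plakophilins are the lateral armadillo proteins of the plaque, which cluster the cadherins and bind desmoplakin. The largest difference among the 10 genes was in *pkp2*, whose mammalian counterpart serves the junctions of heart muscle and of simple epithelia. Longfin libraries had 74.3 and 79.8 CPM and wildtype libraries 193.9 and 181.9 CPM. The libraries of a genotype lay close together, 1.07-fold apart in each, while the lowest wildtype library was 2.28-fold above the highest longfin library. The log2 fold change was -1.29 ± 0.09 (SE), a level 2.44-fold lower in longfin tips, and 0.893% of all genes tested had a fold change as low or lower.

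For *pkp3a*, the levels were 373.7 and 397.3 CPM in longfin and 845.3 and 756.3 CPM in wildtype tips. In mammals plakophilin 3 is found through all living layers of the epidermis. The genotypes were again well apart, with a log2 fold change of -1.06 ± 0.09 (SE), a gap of 1.90-fold between the nearest libraries of the genotypes and at most 1.12-fold between replicates. Its paralogue *pkp3b* was scarcely counted, with 66 reads in each longfin library and 66 and 86 in those of wildtype tips. These are 2.97 and 3.39 CPM against 3.57 and 3.59 CPM, a log2 fold change of -0.17 ± 0.23 that its standard error spans, and one of -0.08 without longfin heterozygous replicate 1 and -0.27 without replicate 2. Within each library, *pkp3a* had 125.8 and 117.1 reads for every *pkp3b* read in longfin tips and 237.0 and 210.7 in wildtype tips. These ratios did not overlap between genotypes, but they restate the *pkp3a* difference by which the family was chosen, so nothing is read from this.

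The pair *pkp1a* and *pkp1b*, whose mammalian counterpart is a plakophilin of the upper epidermal layers, varied more between replicates than between the nearest libraries of the genotypes. For *pkp1b* the CPM was 148.8 and 203.7 in longfin and 213.0 and 274.4 in wildtype tips, and longfin replicate 2 was almost level with wildtype replicate 1. Its log2 fold change was -0.47 ± 0.19 (SE). Leaving out longfin replicate 1 gave -0.26, longfin replicate 2 gave -0.71 and wildtype replicate 2 gave -0.27. For *pkp1a* the CPM was 7.70 and 11.2 in longfin and 13.6 and 17.2 in wildtype tips, and the log2 fold change was -0.72 ± 0.21, or -0.47 without longfin heterozygous replicate 1. In both genotypes replicate 2 was the higher library for both genes, by 1.26- to 1.45-fold.

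The remaining plakophilin, *pkp4*, was the exception to the direction of the others. Its product belongs to the branch of armadillo proteins close to p120 catenin and is known in mammals from adherens junctions as well as desmosomes. It stood at 25.97 and 29.8 CPM in longfin and 25.9 and 26.2 CPM in wildtype tips, with overlapping genotypes and a log2 fold change of 0.10 ± 0.11 (SE). Without longfin heterozygous replicate 2 that value was -0.005.

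These differences changed the make-up of the plakophilin reads. The share from *pkp4* was 4.1 and 4.11% in longfin tips and 2.00 and 2.08% in wildtype tips, and that of *pkp1b* was 23.5 and 28.1% against 16.4 and 21.8%. The share from *pkp2* was 11.7 and 11.0% in longfin and 14.97 and 14.44% in wildtype tips. The *pkp3a* share was 59.0 and 54.8% against 65.3 and 60.0%. In *pkp4* and *pkp2* the shares of the genotypes lay far apart relative to the replicates, whereas in *pkp3a* and *pkp1b* the nearest libraries of the genotypes were closer to each other than replicates were. Most plakophilin reads came from *pkp3a*, so the shares of the other genes in part restate the *pkp3a* difference by which the family was chosen. Nothing is read from them. These are shares of reads, not of molecules, because reads were not divided by gene length.

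Desmoplakin is the obligate link from the plaque to keratin. ENSDARG00000022309 stood at 800.6 and 918.8 CPM in longfin and 1282 and 1225 CPM in wildtype tips, and ENSDARG00000076673 at 387.2 and 370.5 CPM against 510.6 and 495.3 CPM. Both copies were lower in each longfin library than in either wildtype library, by a smaller step than *pkp2* and *pkp3a* showed. Their log2 fold changes were -0.54 ± 0.10 and -0.41 ± 0.08 (SE). Neither passed edgeR's threshold over all genes, whereas DESeq2 called both. The ratio of the copies' reads overlapped between genotypes, at 2.07 and 2.48 in longfin and 2.51 and 2.47 in wildtype tips. How similar the copies are in sequence was not analysed here, so some reads that fit both may have been left out of both counts.

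The cadherins span the gap between cells. The desmoglein gene *dsg2.1* stood at 597.2 and 622.6 CPM in longfin and 1034 and 910.8 CPM in wildtype tips, with a log2 fold change of -0.67 ± 0.09 (SE). Its replicates lay at most 1.14-fold apart, and the genotypes at least 1.46-fold. The desmocollin gene *dsc2l* had a larger fold change, -1.06 ± 0.20, but did not pass edgeR's threshold. Its longfin libraries were close together at 249.4 and 237.4 CPM, while wildtype replicate 1 (609.6 CPM) was 1.51-fold above wildtype replicate 2 (404.1 CPM). Without wildtype replicate 2 its log2 fold change was -1.32, and without wildtype replicate 1 it was -0.73.

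**Figure D2:**
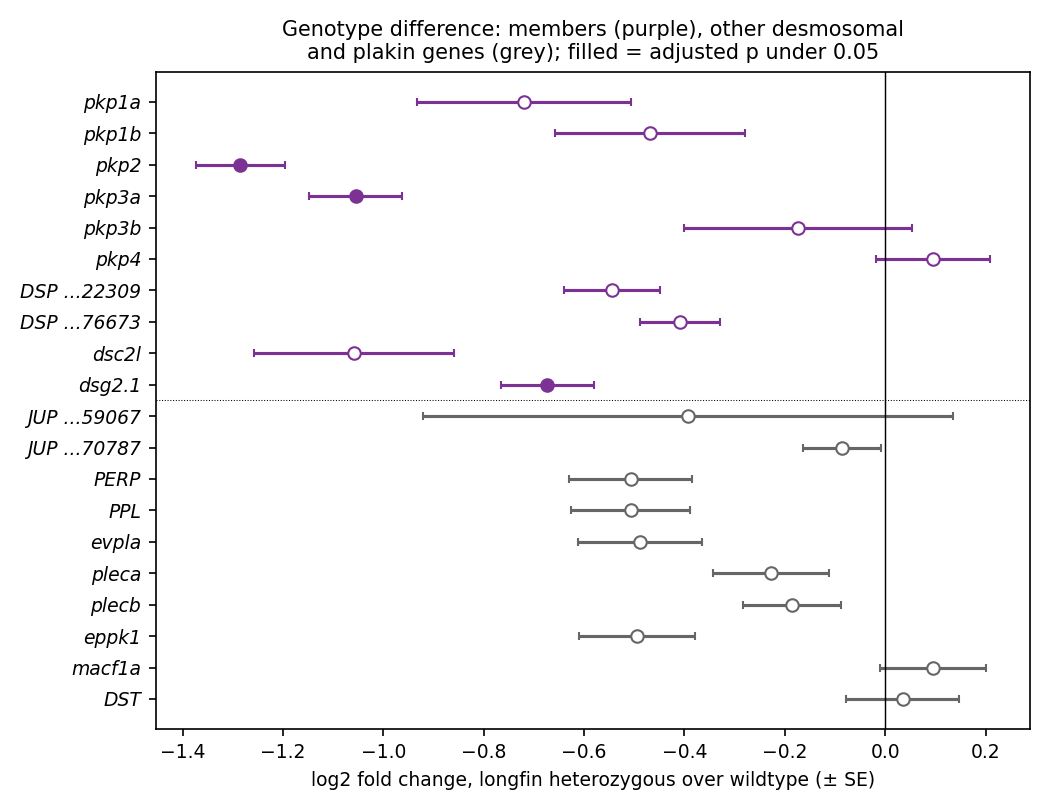
Log2 fold change of longfin heterozygous over wildtype (points) with its standard error (bars) for the 10 desmosomal genes in purple and 10 other desmosomal and plakin genes in grey; filled points have an adjusted p under 0.05 in edgeR. *pkp2*, *pkp3a* and *dsc2l* lie below -1, *pkp4* lies near 0, and the plakoglobin gene JUP (ENSDARG00000070787) lies at -0.09.

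Under 12 other settings of the fit, *pkp2* and *pkp3a* each passed the threshold in 10 and did not where a longfin library was left out, with log2 fold changes between -1.34 and -1.23 and between -1.13 and -0.97. *dsg2.1* passed in 7, ENSDARG00000022309 in 4, *dsc2l* in 3, ENSDARG00000076673 in 2, *pkp1a* and *pkp1b* in 1 each, and *pkp3b* and *pkp4* in 0. Direction was the same in each of the 12 settings for all but *pkp4*. Of all genes, the share called lower was 0.294% with DESeq2 size factors, 0.844% with library size only, 0.348% with upper quartile scaling, 0.374% with no count filter, 0.323% with a mean count of at least 50, 0.245% with limma voom and 2.99% with the replicate number as a block.

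**Figure D3:**
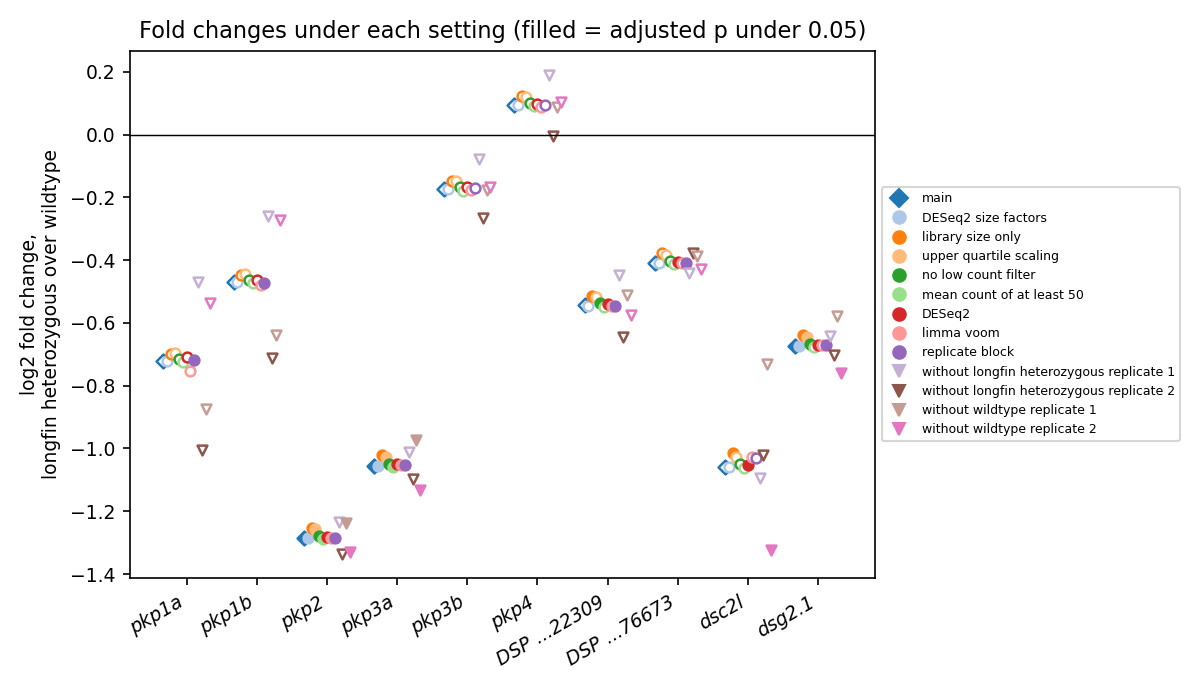
Log2 fold change of longfin heterozygous over wildtype for each desmosomal gene under the reported fit (diamond), 8 other scalings, filters, tests or terms (circles) and with 1 library left out (triangles); filled symbols have an adjusted p under 0.05. Values of *pkp2* and *pkp3a* stay within narrow ranges, those of *pkp1a*, *pkp1b* and *dsc2l* spread with the library left out, and *pkp4* stays near 0.

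Some of these genes overlap others in the RefSeq table of GRCz12tu, an assembly other than the one the authors used, which served only to find such overlaps. In it *pkp2* overlaps *tcp11l2*, which had 1541 and 1122 reads in longfin and 1367 and 1363 in wildtype tips, with a log2 fold change of -0.04 ± 0.15 (SE). Both *dsc2l* and *dsg2.1* overlap *dsg2.2*, another desmoglein gene, which was not analysed here, and *usp24*, whose log2 fold change was 0.13 ± 0.09. The desmoplakin gene *dspb* overlaps *pycr3*, which had 107 and 48 reads in longfin and 111 and 50 in wildtype tips. The other copy, *dspa*, and *pkp1a* and *pkp4* each overlap a long noncoding RNA gene that was not analysed here. Which desmoplakin ID is *dspa* and which *dspb* was not settled. No gene overlapped *pkp1b*, *pkp3a* or *pkp3b*. The strand setting of the counting is not given in the sources used here, so reads of overlapping genes may not have been told apart.

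The plakophilins, desmoplakins and cadherins were then set against epithelial genes within each library, which removes the scaling between libraries. The denominators were chosen after their values were seen. They were the plakoglobin gene JUP (ENSDARG00000070787), an armadillo protein shared by desmosomes and adherens junctions, the epithelial adhesion gene *epcam*, and *cdh1*, which encodes E-cadherin. JUP stood at 667.6 and 689.1 CPM in longfin and 724.6 and 715.4 CPM in wildtype tips, and its log2 fold change was -0.09 ± 0.08 (SE). A second gene given the symbol JUP, with 9 to 21 reads per library, was not used, and its log2 fold change was -0.39 ± 0.53. That of *epcam* was 0.005 ± 0.09, with a sign that changed when a library was left out, and that of *cdh1* was -0.20 ± 0.10, or -0.09 without wildtype replicate 1.

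Relative to JUP reads, 7 of the 10 genes were lower in both longfin libraries than in either wildtype library, 2 (*pkp1b* and *pkp3b*) overlapped, and 1 (*pkp4*) was higher. Of all other genes tested, 11.9% were lower and 32.4% higher without overlap on this scale. Relative to *epcam* the numbers were 9 lower and 1 higher, against 17.6 and 17.5% of all other genes, and relative to *cdh1* 6 lower, 3 overlapping and 1 higher, against 6.98 and 42.8%. These denominators and the 10 genes were picked with their values known, so nothing is read from these counts. For each JUP read, *pkp2* had 0.111 and 0.116 reads in longfin and 0.268 and 0.254 in wildtype tips. The same ratio for *pkp3a* was 0.560 and 0.577 against 1.17 and 1.06, and for *dsg2.1* 0.895 and 0.904 against 1.43 and 1.27.

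**Figure D4:**
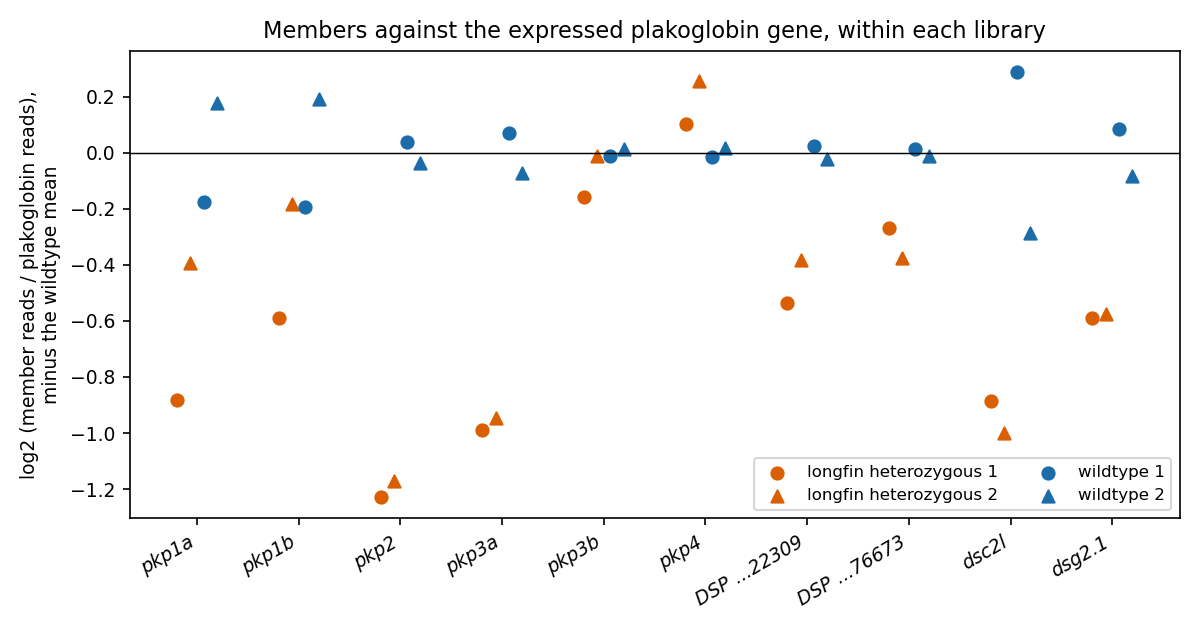
Log2 of each gene's reads over the reads of the plakoglobin gene JUP (ENSDARG00000070787) in the same library, with the wildtype mean of each gene set to 0. Longfin heterozygous libraries (orange) lie near -1.2 for *pkp2* and -1 for *pkp3a*, overlap wildtype (blue) for *pkp1b* and *pkp3b*, and lie above it for *pkp4*.

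Genes around the desmosome were read from the same fit, in 5 lists drawn up by what the genes encode. Of 93 genes matched, 86 were tested, 0 were higher and 1 was lower at an adjusted p under 0.05, or 1 of 86 in either direction against 0.403% of all genes. There were 3 higher and 18 lower with an unadjusted p under 0.05, against 3.65 and 5.82% of all genes. DESeq2 called 7, all lower, against 1.16% of all genes as lower. Limma voom called 1, also lower, against 0.245%. The same shares of all genes apply to the counts of each list below. The median log2 fold change was -0.10.

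The gene that passed was *tgm5l*, of the transglutaminase family, enzymes that crosslink proteins. It had 13.86 and 10.18 CPM in longfin and 42.7 and 35.4 CPM in wildtype tips, and the genotypes did not overlap. Its log2 fold change was -1.69 ± 0.18 (SE), and edgeR gave it an adjusted p of 0.0205 over all genes. It did not pass without longfin heterozygous replicate 1 (adjusted p = 0.0591) or without replicate 2 (adjusted p = 0.101). It was 1 of 26 tested genes that cleave, phosphorylate, crosslink, move or otherwise modify junction proteins, a list with a median of -0.08.

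Other desmosomal and plakin genes had a median of -0.31, with 8 of 10 below 0. Most of those tested encode plakins, and the list held no desmosomal cadherin gene, since none of its cadherin entries matched the name table. None passed in edgeR, 4 were lower at an unadjusted p under 0.05, DESeq2 called 3 (PERP, PPL and *eppk1*) and limma voom 0. PERP, a tetraspan membrane protein of desmosomes, stood at 1068 and 957.1 CPM in longfin and 1594 and 1283 CPM in wildtype tips, and its log2 fold change was -0.51 ± 0.12 (SE). PPL (periplakin), *evpla* (envoplakin) and *eppk1* (epiplakin), plakins of epidermal cells named after their values were seen, had -0.51, -0.49 and -0.49. Without wildtype replicate 1 PPL had -0.33 and *evpla* -0.30, and without wildtype replicate 2 both had -0.66. The plectin gene *pleca*, which links keratin to other cell structures, had -0.23 ± 0.12, or -0.07 without wildtype replicate 1 and -0.37 without replicate 2. With all libraries, JUP (ENSDARG00000070787) was nearer 0 than any of these. In each of these 6 genes, wildtype replicate 1 was the highest library. The plakin genes *macf1a* and DST, also named after their values were seen, lay above 0, at 0.10 ± 0.11 and 0.04 ± 0.11. A second plectin gene, *plecb*, had -0.19 ± 0.10.

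Keratins, the filaments that desmoplakin holds, had a median of -0.32, with 16 of 17 tested genes below 0. None passed in edgeR, 6 were lower at an unadjusted p under 0.05, DESeq2 called 1, *krt1-19e*, and limma voom 0. The log2 fold change of *krt1-19e* was -1.78 ± 0.35 (SE), the lowest of the list. It stood at 2.84 and 6.48 CPM in longfin, 2.28-fold apart, and at 17.2 and 14.4 CPM in wildtype tips. The keratins of highest CPM, a ranking that gene length also sets, were *krt5* (9094 and 10020 CPM in longfin, 9217 and 11850 in wildtype tips) and *krt91* (4210 and 4464 against 5111 and 5933). Their log2 fold changes were -0.14 ± 0.14 and -0.35 ± 0.10 (SE), and that of *krt5* was 0.05 without wildtype replicate 2.

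Adherens junction genes, which build the actin-linked junctions beside desmosomes, had a median of 0.02 over 19 tested. None passed in edgeR, an unadjusted p under 0.05 was reached by 2 as higher and 1 as lower, and DESeq2 and limma voom called 0. The beta-catenin gene CTNNB1 stood at 1242 and 1244 CPM in longfin and 1044 and 1035 in wildtype tips, and it did not pass at a log2 fold change of 0.26 ± 0.08 (SE). Hemidesmosome and basal anchorage genes, which fix basal cells to the basement membrane, had a median of -0.003 over 14 tested. None passed in edgeR, an unadjusted p under 0.05 was reached by 1 as higher and 3 as lower, DESeq2 called 2 (*col17a1a* and *lamb3*) and limma voom 0. The log2 fold changes of *col17a1a* and *lamb3* were -0.81 ± 0.13 and -0.77 ± 0.24 (SE), and 7 of the 14 genes lay below 0. The genes of highest CPM in this list were the collagen gene *col17a1b* and the laminin gene LAMA5. They had 0.05 ± 0.13, with a sign that changed when a library was left out, and 0.32 ± 0.09. Whether the desmosomal genes differed from these lists was not tested.

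**Figure D5:**
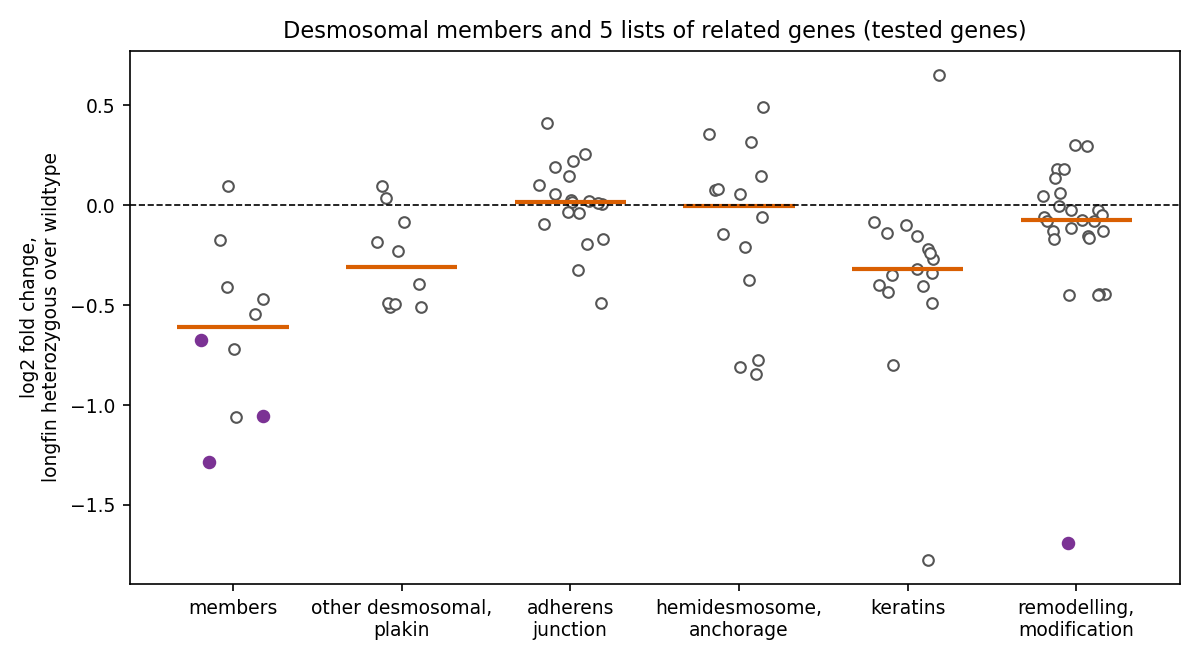
Log2 fold change of longfin heterozygous over wildtype for the tested genes among the 10 desmosomal genes and the 5 lists around them; each circle is a gene, filled where the adjusted p is under 0.05, the orange line is the median of the list and the dashed line the median of all genes tested. Medians lie at -0.61 for the 10 genes, -0.31 and -0.32 for other desmosomal and plakin genes and for keratins, and between -0.08 and 0.02 for the remaining lists.

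Markers of the cell types a fin tip can hold were read beside these results. Summed over 14 tested genes of superficial and intermediate epidermis, the level was 11060 and 12880 CPM in longfin and 14110 and 15140 CPM in wildtype tips, so it moved in the direction of the desmosomal genes. Keratins made up most of this sum. Of the 14 genes, 9 had a fold change below 0 (median -0.18), and the list includes PPL, *evpla*, *cdh1* and keratins already described. Its 1 gene past edgeR's threshold was higher, the epithelial transcription factor gene ELF3 (43.8 and 51.4 CPM against 12.7 and 18.6, log2 fold change 1.60 ± 0.19 SE, adjusted p = 0.0360). ELF3 did not pass without longfin heterozygous replicate 1 (adjusted p = 0.125) or 2 (adjusted p = 0.205). The part of superficial cells in the lower desmosomal levels was not tested.

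The 12 basal epidermis markers summed to 32260 and 30330 CPM in longfin and 28830 and 29130 CPM in wildtype tips, and the 15 of blastema mesenchyme to 48040 and 50230 against 45540 and 38990. These sums lay in the other direction, with medians of 0.15 and 0.23. Below 0 were 3 of the 12 basal genes (*krt5*, ITGB4 and *col17a1a*) and 4 of the 15 of blastema. Much of the basal sum was *and1*, at 11490 and 10260 CPM in longfin and 8859 and 8332 CPM in wildtype tips. Most of the blastema sum was *col1a1a*, at 33000 and 31740 against 30810 and 22320 CPM. The separation of these sums between genotypes rested on these genes. Without *and1* the basal sums overlapped between genotypes, and without *col1a1a* so did the blastema sums. The part of these cells in the desmosomal values was not tested. Summed levels overlapped between genotypes for osteoblasts, endothelium, macrophages and neutrophils, and pigment cells. Ionocyte and mucous cell markers summed to 202.2 and 197.5 CPM in longfin and 270.8 and 226.1 in wildtype tips. Much of this sum was *ca2*, at 110 and 99.3 CPM in longfin and 185.5 and 125.7 CPM in wildtype tips, and without it the genotypes overlapped. Nerve and glia markers were near absent, at 1.17 to 2.30 CPM in all. Across these 8 lists edgeR and limma voom called 0 genes over all genes tested. DESeq2 called 3, *msx2b* as higher and *col17a1a* and *muc5.2* as lower, against 1.16% of all genes as lower. At an unadjusted p under 0.05 edgeR had 2 higher and 1 lower for basal epidermis, 6 higher and 1 lower for blastema, 0 higher and 2 lower for ionocytes and mucous cells, and at most 1 for each of the other five. Of defining markers, *bglap* (mature osteoblasts), *lyz* (neutrophils) and *plp1b* (glia) had 0 reads in every library. The neutrophil marker *mpx* did not match the name table. Genes listed for macrophages and neutrophils summed to 220.6 and 271.1 CPM in longfin and 218.7 and 276.1 CPM in wildtype tips. Whether neutrophils were present was not tested. Other osteoblast markers were counted, and their list summed to 2223 and 2611 CPM in longfin and 2376 and 3168 CPM in wildtype tips. Among them IFITM5, named after its values were seen, stood at 60.2 and 68.8 against 50.1 and 69.2 CPM. The osteoblast gene SP7, whose regulatory sequence drives the transgene, stood at 45.9 and 57.4 CPM in longfin and 45.4 and 56.1 CPM in wildtype tips, although the tissue was taken as GFP-negative.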

How the data were processed

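TopHat2, HTSeq and the GRCz11 (danRer11) build are named in the submitters' processing notes; their versions, the annotation release and the counting's strand setting and overlap mode were not given in the sources used here. Values are raw counts per Ensembl gene, as deposited by the authors without normalization. Their unnamed total row and 5 HTSeq classes stayed out of library sizes and tests; reads that were not uniquely aligned were 28.7 to 41.9%, in no gene 7.78 to 9.31% and ambiguous 1.08 to 1.38% of each library's reads in genes and classes. Reads in genes numbered 19428186 to 23157979, and counting precision is lowest for *pkp3b* (66 to 86 reads).

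Samples were grouped by the genotype label. Counts were analysed in R 4.3.3 with edgeR 4.0.16: filterByExpr (by genotype, minimum count 10 and total 15), TMM scaling, glmQLFit (legacy off, robust on) and glmQLFTest for genotype without a replicate term, two-sided, Benjamini-Hochberg adjusted over 18366 genes, threshold 0.05. CPM are TMM-scaled; each standard error is the fold change over the square root of F. The fit was tested on simulated data. Replicates differed by more than sampling noise (chi-square over its degrees of freedom 19.0 in longfin and 27.6 in wildtype).

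Alternatives were other scalings (DESeq2 size factors, upper quartile, library size only), DESeq2 1.42.0 or limma voom (limma 3.58.1) as the test, no count filter, a filter on a mean count of 50, a replicate block, and each library left out. Of 192 entries in 5 lists of related genes and 9 of cell type markers, 177 matched the name table. A symbol sometimes named both zebrafish copies or, as for MFAP4 and MPEG1, more genes. Named were all 10 members and, per list, up to 4 genes past the threshold or, failing that, the 2 of highest CPM. For marker lists the latter were named only where they made up much of a sum. Other genes are said to be chosen after their values were seen or are members of a small count. The members and lists were chosen with earlier results of these data known. The planned comparison of protein sequences, search of promoters and scaling by coding length were not run, since no sequences or coding lengths were used here.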

Additional observations from a re-analysis of the deposited data

How the results depend on the processing

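Desmosomal genes called between genotypes numbered 3 in the reported fit, 5 with library size only, 6 with DESeq2 and 7 with the replicate block, and 0 to 4 with a library left out. Over all genes the counts were 74 as reported, 219 with library size only, 130 with no low count filter, 289 with DESeq2 and 794 with the replicate block, and 1 to 163 with a library left out. Related genes called numbered 1 as reported, 2 with library size only, 2 with no low count filter, 7 with DESeq2 and 18 with the replicate block, and 0 to 3 with a library left out. The lowest counts came without either longfin heterozygous library, and the highest of the leave-one-out counts without wildtype replicate 2. Limma voom and the filter on a mean count of at least 50 each called 2 desmosomal genes, against 0.245 and 0.323% of all genes as lower. The cause of these differences between settings was not tested.

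The replicate block used the numbers in the labels, which no source ties to a shared clutch or day. Over genes, the difference between replicates 1 and 2 in longfin correlated with that in wildtype tips with r = 0.279, from 1 pair of differences. Under the block *pkp1a*, *pkp1b* and both desmoplakin copies were called beside the 3 of the reported fit, and *dsc2l* was not.

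Of 120 alternative values for the 10 genes, 99 kept direction and side of the threshold, 11 newly passed, 9 no longer passed and 1 changed sign. That was *pkp4*, whose log2 fold change lay between -0.005 and 0.19 with a library left out. Among other named genes the sign also changed with a library left out for *col17a1b* (-0.13 to 0.22), *krt5* (-0.31 to 0.053) and *epcam* (-0.068 to 0.077). *dsg2.1* did not pass with a mean count of at least 50 or with limma voom. The difference between genotypes in the *pkp3a* share of plakophilin reads, -5.76 percentage points, lay between -8.37 and -3.15 with a library left out, an alternative chosen after seeing the data. Wildtype replicate 1 left out gave -3.15, and longfin replicate 2 left out gave -3.66. Its planned scaling by coding length was not run.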
